A study of Mus musculus with 16 samples.

Results

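The genes described here are 41 mouse genes of protein folding in the endoplasmic reticulum (ER) and of the unfolded protein response, taken by name from the 24532 genes of the expression table. They were grouped by role into 5 sensors and transcription factors, 3 ATF4 targets, 11 chaperones and lectins, 7 genes of oxidative folding, 9 genes of translocation and traffic, and 6 genes of ER-associated degradation (ERAD). All 41 reached 1 FPKM in at least 2 libraries and were tested. FPKM, the number of fragments of a gene scaled to its transcript length and to the size of the library, is the unit of every level given here. The RNA came from spleens of C57BL/6 mice at 12 weeks of age, which were either controls in the steady state or had received 3 once-daily injections of the cytokine GM-CSF, and all mice were otherwise of the same strain and tissue. Control and GM-CSF cDC1s (XCR1+33D1-) and cDC2s (XCR1-33D1+), and the GM-CSF DC-Xs (XCR1-33D1-), were sorted from the CD11c-high MHC II+ dendritic cell gate. P-I (Ly6C+, classical monocytes), P-III (Ly6C-MHC II+CD301b-) and P-IV (Ly6C-MHC II+CD301b+) were sorted from the CD11b+CD115-high cells of GM-CSF mice, for which no control arm was analysed here. Each of the 8 populations had 2 libraries, which the labels do not tie to separate mice, and the p-values measure the spread between the 2 libraries of a population, pooled over the 8 populations. DC-Xs and P-IV are overlapping populations obtained through different gates.

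Secreted and membrane proteins enter the ER through the Sec61 channel, are folded by chaperones such as BiP (Hspa5) and by protein disulfide isomerases, and are removed by ERAD when folding fails. The sensors IRE1 (Ern1), PERK (Eif2ak3) and ATF6 respond to unfolded proteins. IRE1 splices Xbp1 mRNA, PERK lowers general translation and favours ATF4, and ATF6 and spliced XBP1 induce chaperone and ERAD genes. In mouse dendritic cells the IRE1 and XBP1 branch is known to be active in cDC1s without added stress. The expression table gives 1 value per gene, so Xbp1 splicing was not measured.

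The ER stress response element (ERSE) is the promoter sequence through which ATF6, together with NF-Y on the CCAAT part, is known to act. Its letters, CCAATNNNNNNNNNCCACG, were searched on both strands in RefSeq promoters (GRCm38.p6, 250 bases before to 50 after the gene start), of which 35 members had one. ERSE was found in 9 of the 35 (25.7%), against 16 of 9009 tested genes with a promoter (0.18%), those 9 included. The members were listed by name as genes of this response, so the higher share is no independent result. The shorter ERSE-II, ATTGGNCCACG, was found in 2 members (5.7%) and in 7 genes (0.08%), and no member held both forms. An XBP1 element, TGACGTGG, was in 0 members and 92 genes (1.02%), and the ATF4 element TGATGCAA was in 1 member, Herpud1, and 62 genes (0.69%). Absence of these letters does not mean that the members have no site for XBP1. The stretches are printed because these members recur in the results, each 5′ to 3′ on the strand that carries the motif, with 10 bases on either side and the 2 fixed parts in capitals.
Hspa5 (chr2:34772015-34772053, plus strand): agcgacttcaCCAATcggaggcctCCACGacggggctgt
Hsp90b1 (chr10:86705628-86705666, minus strand): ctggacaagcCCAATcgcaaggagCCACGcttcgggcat
Hsp90b1 (chr10:86705523-86705561, plus strand): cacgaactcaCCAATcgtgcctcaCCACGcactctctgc
Calr (chr8:84847065-84847103, plus strand): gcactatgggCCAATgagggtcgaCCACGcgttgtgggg
Canx (chr11:50325790-50325828, minus strand): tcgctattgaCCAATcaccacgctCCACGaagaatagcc
Creld2 (chr15:88819510-88819548, minus strand): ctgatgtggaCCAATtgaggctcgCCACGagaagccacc
Dnajc3 (chr14:118937817-118937855, plus strand): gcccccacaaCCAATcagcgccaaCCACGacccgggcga
Pdia6 (chr12:17266481-17266519, plus strand): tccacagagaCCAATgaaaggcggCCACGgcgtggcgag
Ero1lb (chr13:12565672-12565710, minus strand): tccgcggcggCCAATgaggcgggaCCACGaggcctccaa
Syvn1 (chr19:6046522-6046560, plus strand): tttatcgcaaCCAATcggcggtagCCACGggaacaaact
Dnajb11, ERSE-II (chr16:22857842-22857872, plus strand): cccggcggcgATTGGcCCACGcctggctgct
Herpud1, ERSE-II (chr8:94386367-94386397, plus strand): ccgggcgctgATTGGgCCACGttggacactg
A match is a description of letters in a window and no evidence of binding. Between control cDC1s and control cDC2s the ERSE members did not all move in 1 direction. Of the 9, 3 passed the test as higher in control cDC1s (Hsp90b1, Creld2 and Pdia6). The 9 differences ran from -0.62 to 1.97 on the log2 scale. Between GM-CSF cDC1s and GM-CSF cDC2s they ran from 0.09 to 1.14, with 3 higher and 0 lower. The median of the ERSE members was 0.86 in the control and 0.77 in the GM-CSF comparison. It was 0.39 and 0.22 in the 26 members whose promoter held no ERSE, a contrast that was not tested.

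Depth could be read from the steps of low values in 11 of 16 libraries and was about 24600000 to 47100000 fragments, and it is unknown for the other 5, all of them cDC libraries. Replicates correlated at r = 0.947 to 0.996 over genes, with a spread between replicates on the log2 scale from 0.517 in control cDC1s down to 0.135 in P-IV. The pooled fit gave a gene the same spread in all populations. Its standard errors are therefore likely too small between cDC1s and cDC2s and too large along the CD115-high cells. The sorting markers matched the labels: Xcr1 was 188 and 235 in control cDC1s and 0.442 and 1.69 in control cDC2s, Csf1r was 381 to 517 in the CD115-high libraries, and Mgl2 (CD301b) was 773 and 803 in P-IV. In bulk samples, fewer cells of a type and less RNA per cell cannot be told apart.

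Levels of the 41 genes spanned from under 1 FPKM (Trib3) to 1016 FPKM (Hspa5, in control cDC1s). Control cDC1s had the highest mean for 18 members, P-I for 8, GM-CSF cDC1s for 7, P-III for 4, control cDC2s for 3 and GM-CSF cDC2s for 1, whereas DC-Xs and P-IV were highest for 0. DC-Xs had the lowest mean for 11 members and control cDC1s for 9. So control cDC1s were most often the highest and also often the lowest, while DC-Xs were most often the lowest. The 11 chaperones and lectins summed to 2742 and 2661 FPKM in control cDC1s and to 957 and 1116 FPKM in P-III, which had the lowest mean.

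**Figure D1:**
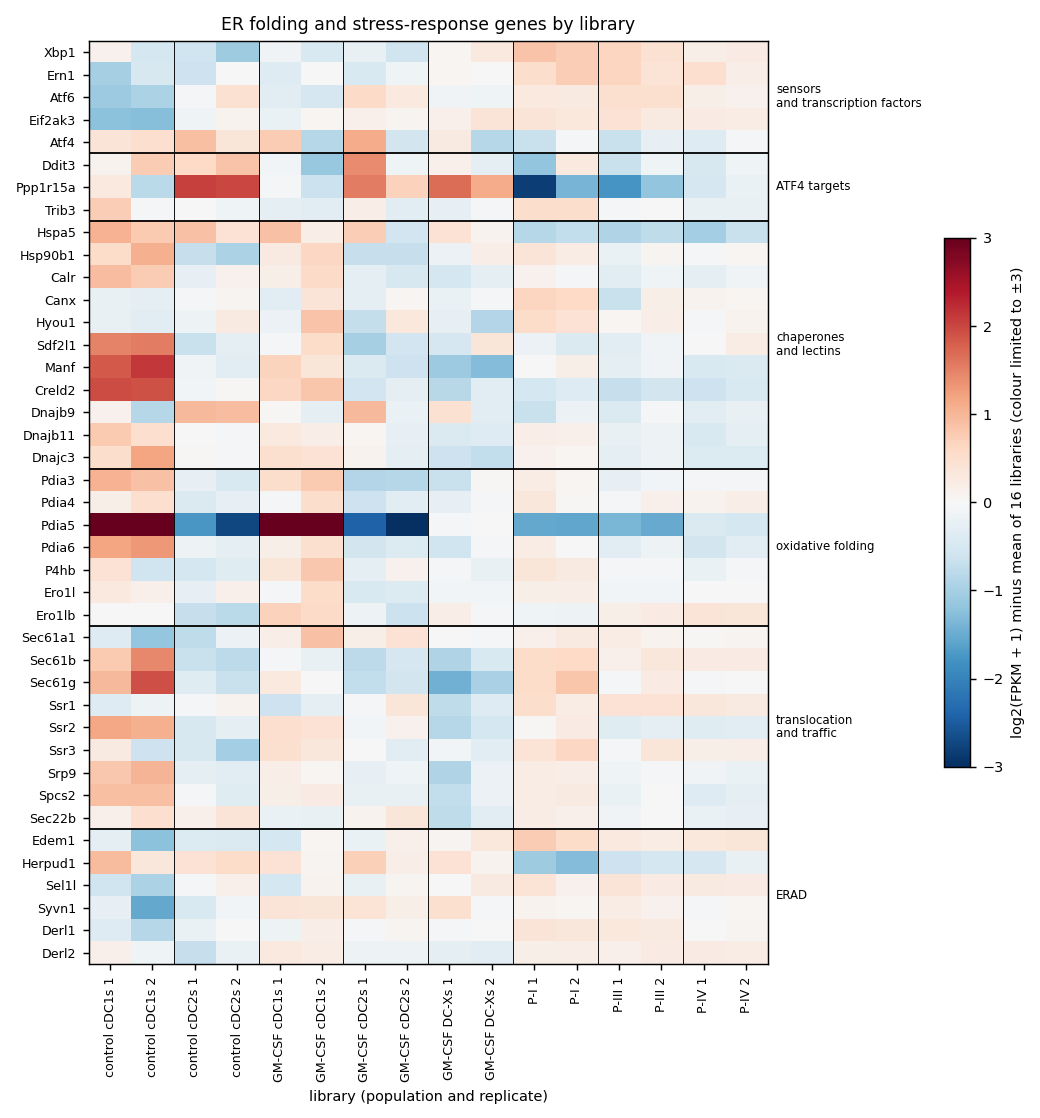
Each cell is 1 gene in 1 library, coloured by its log2(FPKM + 1) minus that gene's mean over 16 libraries (colour limited to ±3), with genes ordered by role and libraries by population. Pdia5 stands out in the 4 cDC1 libraries, Manf and Creld2 in control cDC1s, and Ppp1r15a in the cDC2s and DC-Xs.

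In control cDC1s 4 of 11 chaperones and lectins, 3 of 7 genes of oxidative folding and 5 of 9 genes of translocation and traffic were higher than in control cDC2s. The genes of PERK, ATF6, GADD34 (Ppp1r15a) and the cochaperone ERdj4 (Dnajb9) were lower. The test was limma on log2(FPKM + 1) over all 16 libraries, and a gene passed at an adjusted p under 0.05 with at least a 2-fold difference. Of the 41 members, 16 passed, 12 higher and 4 lower, against 31.8% of all 11335 genes tested (11.2% higher, 20.6% lower). The members' median difference was 0.41 on the log2 scale, and that of all genes was -0.26.

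Among the chaperones and lectins, 4 of 11 were higher and 1 lower in control cDC1s. Manf, a secreted ER stress-response protein that binds BiP, was 87.7 and 107 FPKM in control cDC1s and 22.2 and 19.1 FPKM in control cDC2s. Its mean was 4.71-fold higher, a log2 difference of 2.18 (SE 0.188, adjusted p 2.9e-06). Sdf2l1, a component of the ER chaperone complex, was 453 and 469 FPKM against 102 and 134 FPKM, and differed by 1.97 (SE 0.288, adjusted p 0.000183). The groups did not overlap for either gene. Creld2, an ER protein induced by stress whose promoter carries an ERSE, was 177 and 171 FPKM against 41.8 and 45.4 FPKM, and differed by 1.97 (SE 0.195, adjusted p 8.97e-06). Hsp90b1 (gp96), the ER chaperone of Toll-like receptors and integrins, was 273 and 391 FPKM against 114 and 95.8 FPKM, and its difference of 1.64 also passed. Thus the 4 genes that were higher in cDC1s were so by 3.17- to 4.71-fold in their means.

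The most abundant chaperone did not follow them. Hspa5 (BiP) was 1016 and 853 FPKM in control cDC1s and 911 and 677 FPKM in control cDC2s, so the groups overlapped, and its difference of 0.25 did not pass (adjusted p 0.602). Calr, the calcium-binding lectin calreticulin, differed by 0.89 and Dnajc3 (p58IPK, a BiP cochaperone) by 0.86, which were under 2-fold at adjusted p 0.00285 and 0.00606. Dnajb9 (ERdj4), the BiP cochaperone that represses IRE1, went the other way, at 15.3 and 7.14 FPKM in control cDC1s and 28.1 and 27.0 FPKM in control cDC2s, a difference of -1.31 that passed (adjusted p 0.0204).

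Pdia5 had the largest difference of all members. This member of the disulfide isomerase family was 249 and 124 FPKM in control cDC1s and 2.54 and 0.795 FPKM in control cDC2s, a 112-fold difference in means (6.13 on the log2 scale, SE 0.368, adjusted p 1.31e-07). The cDC2 values lie around the filter of 1 FPKM, so the fold is loosely set: it was 235 without replicate 1 of control cDC2s, 73.5 without replicate 2 of control cDC2s and 74.1 without replicate 1 of control cDC1s. The gene lies on chromosome 16 (35397308 to 35490919, GRCm38.p6) and its promoter held none of the 4 motifs. Pdia6, an isomerase found with BiP, was 400.4 and 430 FPKM against 158 and 145 FPKM and differed by 1.45 (SE 0.204, adjusted p 0.000141). Pdia3 (ERp57), which folds glycoproteins with calreticulin and loads peptide onto MHC class I, was 566 and 508 FPKM against 232 and 199 FPKM and differed by 1.32 (SE 0.214, adjusted p 4e-04). The oxidases Ero1l and Ero1lb, Pdia4 and P4hb did not pass, so 3 of 7 oxidative folding genes were higher.

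Translocation genes were higher in control cDC1s for 5 of 9 and lower for 0. Sec61g, the gamma subunit of the Sec61 channel, was 51.3 and 101 FPKM in control cDC1s and 19.7 and 15.7 FPKM in control cDC2s, and differed by 1.98 (SE 0.287, adjusted p 0.000181). Sec61b, the beta subunit, was 162 and 257 FPKM against 59.1 and 54.5 FPKM and differed by 1.83 (SE 0.225, adjusted p 5.12e-05). Ssr2, a subunit of the translocon-associated complex, was 168 and 157 FPKM against 53.3 and 61.3 FPKM and differed by 1.49 (SE 0.168, adjusted p 2.53e-05). Srp9 of the signal recognition particle and Spcs2 of the signal peptidase also passed, at 1.21 and 1.11. The channel's large subunit Sec61a1 did not pass, at 71.4 and 41.3 FPKM against 54.9 and 82.2 FPKM, with overlapping groups.

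Of the sensors, Eif2ak3 (PERK) was 4.44 and 4.28 FPKM in control cDC1s and 10.7 and 12.6 FPKM in control cDC2s, a difference of -1.24 (SE 0.185, adjusted p 0.000219). Atf6 was 7.64 and 8.54 FPKM against 16.7 and 24.3 FPKM, a difference of -1.22 (SE 0.198, adjusted p 0.000398). The groups did not overlap for either sensor. Xbp1 was 138 and 87.4 FPKM in control cDC1s and 83.3 and 60.7 FPKM in control cDC2s, and its difference of 0.62 did not pass (adjusted p 0.0518). Ppp1r15a (GADD34), which reverses the translation block by directing a phosphatase to eIF2alpha, was 208 and 97.5 FPKM in control cDC1s against 711 and 692 FPKM in control cDC2s, 4.59-fold higher in cDC2s (log2 difference -2.29, SE 0.476, adjusted p 0.00203) and 7.19-fold without replicate 1 of control cDC1s. Ddit3 (CHOP), another ATF4 target, did not pass at -0.30, and 0 of 6 ERAD genes passed by limma, with 3 at an unadjusted p under 0.05 (1 of them, Sel1l, the adaptor of the ubiquitin ligase Syvn1, differed by -0.83 at adjusted p 0.0114).

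Markers of other cells were read beside these differences. The 6 plasma cell markers in the table summed to 5.53 and 10.9 FPKM in control cDC1s and 3.0 and 7.89 FPKM in control cDC2s, with the defining plasma cell genes Sdc1 and Tnfrsf17 at 0 in both groups. The highest of them was Derl3, itself an ERAD gene, in cDC1s (mean 5.29 FPKM) and Jchain in cDC2s (mean 3.45 FPKM). B cell markers, led by Ms4a1, summed to 24.5 and 24.7 FPKM against 12.5 and 15.2 FPKM, and plasmacytoid DC markers, led by Ccr9 in cDC1s, to 7.85 and 14.1 FPKM against 4.71 and 5.63 FPKM. The 5 red pulp macrophage markers had larger sums, which overlapped and tended the other way. These were 34.4 and 124.8 FPKM in the control cDC1 libraries and 93.5 and 229.4 FPKM in the control cDC2 libraries, given from the lower to the higher. In either population 0 of them were under 1 FPKM in both libraries. Hmox1, the highest of the list in both populations, overlapped, with means of 44.1 and 43.7 FPKM. Named for its values, and so not standing for the whole list, the iron exporter gene Slc40a1 was 5.38 and 1.39 FPKM against 52.6 and 27.1 FPKM. The part of these cells in the members' differences was not tested.

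The control cDC1 libraries also favoured short transcripts. Over all genes the difference between control cDC1s and control cDC2s fell with transcript length (Spearman rho -0.416 across genes, which are not independent), with a median of 0.59 in genes of up to 1513 nt and -0.63 in genes of 4452 nt or more. With this trend removed 15 members passed, 13 higher and 2 lower, and 11 were the same genes. Pdia5 (6.01) and Manf (2.37) kept their differences, whereas Sec61b (0.86), Ssr2 (0.93), Srp9 (0.78), Eif2ak3 (-0.82) and Atf6 (-0.63) fell under 2-fold. Sec61g, Hsp90b1, Sdf2l1, Pdia6, Pdia5, Manf and Creld2 passed in every alternative and with each library left out. Dnajb9 missed the threshold without replicate 2 of control cDC1s (-0.81) or without either control cDC2 library (-1.28 and -1.34), Atf6 (-0.96) and Spcs2 (0.96) missed it without replicate 2 of control cDC2s, and Pdia3, Srp9, Spcs2, Atf6 and Eif2ak3 were under 2-fold after quantile normalization. With library weights Ppp1r15a and Dnajb9 missed the adjusted threshold, as did Eif2ak3, Atf6 and Dnajb9 in a fit of these 4 libraries alone.

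**Figure D2:**
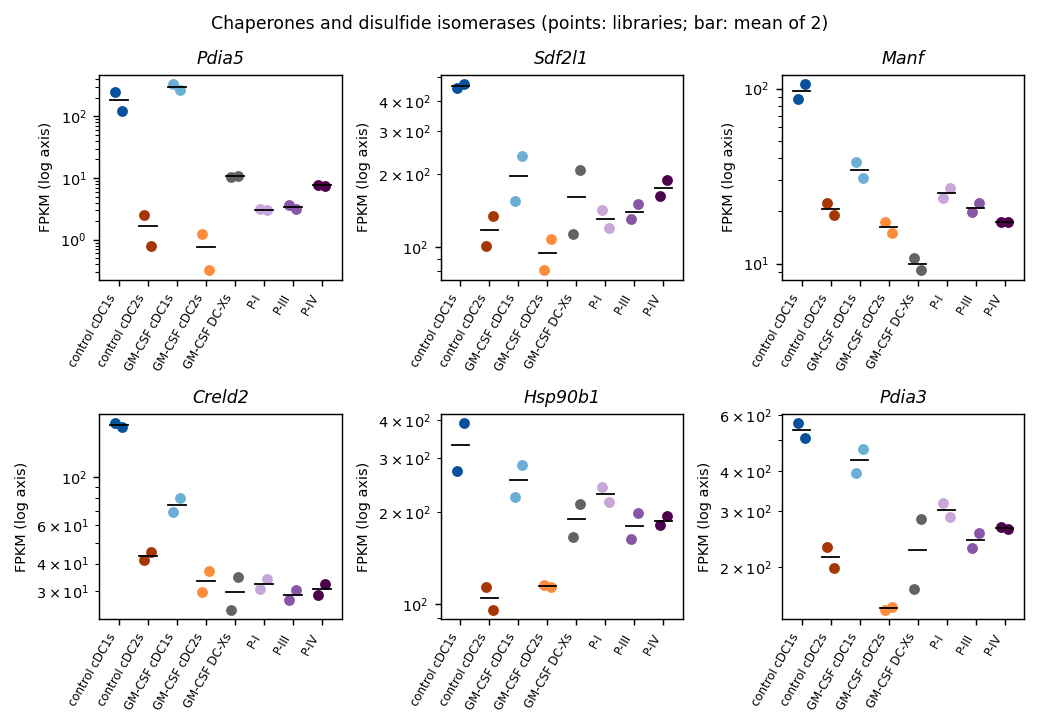
FPKM on a log axis of 6 chaperone and isomerase genes in the 16 libraries, with points for libraries and bars for the mean of 2. Pdia5 separates all 4 cDC1 libraries (124 to 336 FPKM) from the other 12 (up to 10.9 FPKM), whereas Manf and Creld2 are highest in control cDC1s and lower in GM-CSF cDC1s.

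In GM-CSF mice 4 of 11 chaperones and lectins and 3 of 7 genes of oxidative folding were higher in cDC1s than in cDC2s, in libraries that the control comparison does not share. Of the 41 members 8 passed, 7 higher and 1 lower, against 14.8% of all genes (6.01% higher, 8.80% lower), and the median difference was 0.41 for members and -0.10 for all genes. Pdia5 was 336 and 271 FPKM in GM-CSF cDC1s and 1.22 and 0.318 FPKM in GM-CSF cDC2s, a 394-fold difference in means (7.47 on the log2 scale, SE 0.368, adjusted p 3.92e-08). This fold rests on cDC2 values around 1 FPKM and was 955 without replicate 1 and 248 without replicate 2 of GM-CSF cDC2s. Pdia3 was 396 and 470 FPKM against 147 and 151 FPKM and differed by 1.53 (SE 0.214, adjusted p 0.000231). These isomerases passed in every alternative and with each library left out. Ero1lb, the oxidase that recharges disulfide isomerases, was 32.4 and 30.1 FPKM against 17.6 and 12.4 FPKM and passed in this arm only, at 1.03 (adjusted p 0.00167), although the difference between the arms was 0.27 and did not pass (adjusted p 0.527).

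Creld2 was 69.0 and 80.0 FPKM in GM-CSF cDC1s and 29.6 and 37.2 FPKM in GM-CSF cDC2s, a difference of 1.14 (adjusted p 0.00105). Hsp90b1 was 224 and 285 FPKM against 115 and 114 FPKM, a difference of 1.13 (adjusted p 0.00209). Manf was 38.2 and 30.8 FPKM against 17.4 and 15.1 FPKM, a difference of 1.04 (adjusted p 0.00159). Sdf2l1 was 156 and 238 FPKM against 80.5 and 108 FPKM, a difference of 1.04 that also passed. All 4 lay just over the 2-fold limit and near it in the libraries left out: Hsp90b1 was 0.96 without replicate 2 of GM-CSF cDC1s, Creld2 was 0.98 without replicate 1 of GM-CSF cDC2s, Manf was 0.89 without replicate 1 of GM-CSF cDC1s and 0.94 without replicate 2 of GM-CSF cDC2s, Sdf2l1 was 0.73 and 0.82 without replicate 2 of GM-CSF cDC1s and replicate 1 of GM-CSF cDC2s, and Ero1lb was 0.98 and 0.79 without replicate 1 of GM-CSF cDC1s and replicate 2 of GM-CSF cDC2s. Sdf2l1 was 0.97 with the length trend removed and missed the adjusted threshold with library weights. In a fit of these 4 libraries alone Pdia5, Pdia3, Hsp90b1 and Creld2 passed.

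Ppp1r15a was again lower in cDC1s, at 166 and 108 FPKM against 500.3 and 275 FPKM (log2 difference -1.46, SE 0.476, adjusted p 0.0459). This call was lost without replicate 1 (-1.77) or replicate 2 (-1.16) of GM-CSF cDC1s and without replicate 1 of GM-CSF cDC2s (-1.03), and with a pseudocount of 0.1, with no filter, with library weights and in a fit of these libraries alone. By limma 0 of the 9 translocation genes, 0 of the 5 sensors and factors and 0 of the 6 ERAD genes passed (6, 1 and 0 at an unadjusted p under 0.05). Atf6 differed by -0.84 and Pdia6 by 0.81 at adjusted p 0.00886 and 0.0128, under the 2-fold limit. In all, 7 members passed in both arms (43.8% of the 16 control calls and 87.5% of the 8 GM-CSF calls), all with the same sign. The overlap over all genes was not counted, so these shares do not set the members apart from other genes. Here B cell markers summed to 11.4 and 12.8 FPKM in GM-CSF cDC1s and 4.57 and 5.31 FPKM in GM-CSF cDC2s, and red pulp macrophage markers to 37.5 and 79.6 FPKM against 61.9 and 115.0 FPKM, from the lower to the higher library, and their part was not tested.

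**Figure D3:**
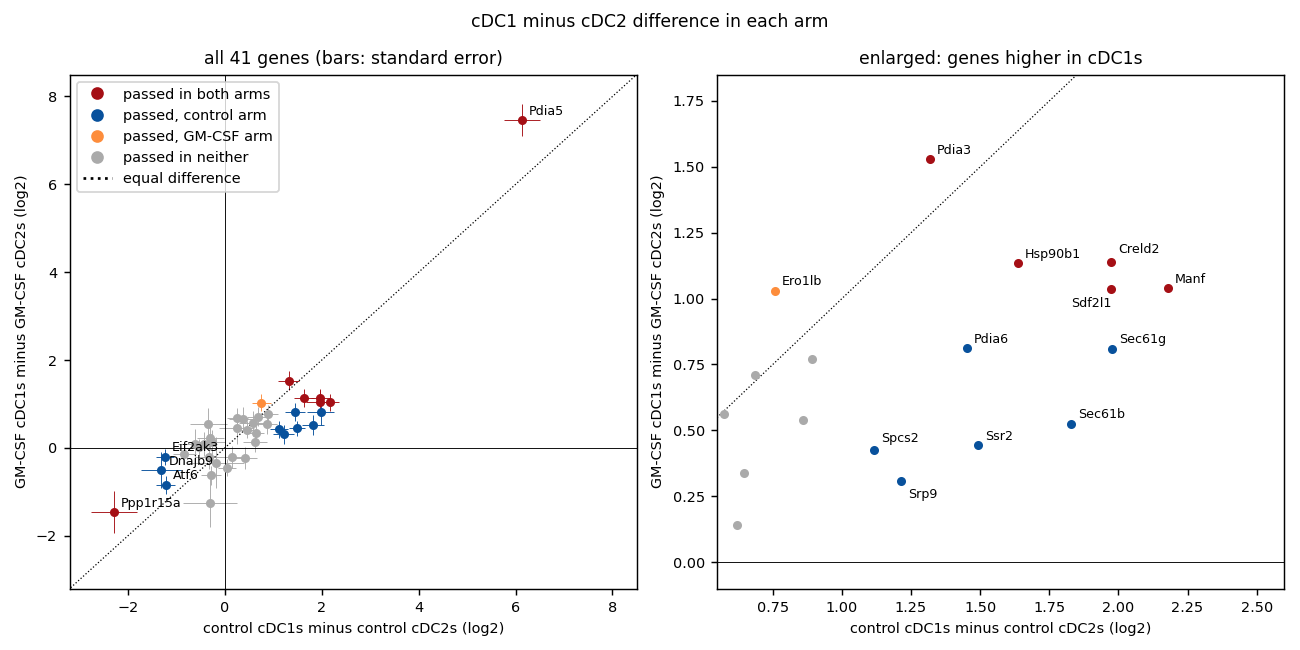
The log2 difference of cDC1s minus cDC2s in control mice (horizontal) and in GM-CSF mice (vertical) for the 41 genes, with standard errors, and the region of genes higher in cDC1s enlarged at right. Pdia5 lies at 6.13 and 7.47, while Manf, Sdf2l1, Creld2, Hsp90b1, Sec61b and Sec61g lie below the line of equal difference.

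Between control and GM-CSF cDC1s, 3 of the 4 chaperones that were higher in control cDC1s than in control cDC2s fell after GM-CSF. The exception, Hsp90b1, was 273 and 391 FPKM in controls and 224 and 285 FPKM after GM-CSF, with overlapping libraries (-0.37, adjusted p 0.221). Of the 41 members 8 passed, 3 higher and 5 lower, against 14.8% of all genes (10.4% higher, 4.41% lower), with a median of -0.19 for members and 0.14 for all genes. The control cDC1 libraries enter both this comparison and the control comparison of subsets, so their values move both. Manf fell from 87.7 and 107 FPKM to 38.2 and 30.8 FPKM, a log2 change of -1.47 (SE 0.188, adjusted p 0.000843). Sdf2l1 fell from 453 and 469 FPKM to 156 and 238 FPKM, a change of -1.26 (SE 0.288, adjusted p 0.00941). Creld2 fell from 177 and 171 FPKM to 69.0 and 80.0 FPKM, a change of -1.22 (SE 0.195, adjusted p 0.00201). In each of the 3 genes the 2 treated libraries were below both controls, and still above both GM-CSF cDC2 libraries. Markers of other cells also differed between these groups. The 4 B cell markers summed to 24.5 and 24.7 FPKM in control and 11.4 and 12.8 FPKM in GM-CSF cDC1s, from the lower to the higher library, led by Ms4a1 and with Pax5 at 0 after GM-CSF. The 6 plasma cell markers in the table summed to 5.53 and 10.9 FPKM against 2.47 and 5.34 FPKM, with Sdc1 and Tnfrsf17 at 0 in both groups. Their highest gene in both groups was Derl3, itself an ERAD gene, with means of 5.29 and 2.27 FPKM. The part of these cells in the change was not tested.

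The translocon subunits went in different directions. Sec61g fell from 51.3 and 101 FPKM to 32.0 and 26.2 FPKM (-1.29, SE 0.287, adjusted p 0.00849), and Sec61b from 162 and 257 FPKM to 91.4 and 80.9 FPKM (-1.24, SE 0.225, adjusted p 0.00347). Sec61a1 rose from 71.4 and 41.3 FPKM to 107 and 172 FPKM (1.31, SE 0.28, adjusted p 0.00701). Sec61a1 encodes the channel itself, with a median RefSeq transcript several times longer than those of the 2 small subunits. Eif2ak3 rose from 4.44 and 4.28 FPKM to 10.0 and 12.2 FPKM (1.17, SE 0.185, adjusted p 0.00186). Syvn1, the ERAD ubiquitin ligase HRD1, rose from 10.8 and 3.80 FPKM to 17.1 and 17.1 FPKM (1.26, SE 0.338, adjusted p 0.0181). Pdia5, at 336 and 271 FPKM against 249 and 124 FPKM in controls, did not pass (0.78, adjusted p 0.139).

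Here too the difference moved with transcript length, in the opposite sense (rho 0.458 across genes, with medians of -0.52 and 0.36 in the same short and long genes). With the trend removed 3 members passed, 0 higher and 3 lower: Manf (-1.63), Spcs2 (-1.09) and Pdia6 (-1.04), of which Manf alone was also among the original 8. The translocon subunits Sec61g (-0.59), Sec61b (-0.43) and Sec61a1 (0.86) were then all under 2-fold. After quantile normalization 4 passed, 2 higher and 2 lower: Manf, Sec61g, Sec61a1 and Pdia5 (1.05). With library weights 3 passed (Eif2ak3, Manf and Sec61b). In a fit of these 4 libraries alone 0 of 41 passed by limma. Without replicate 2 of control cDC1s, Sec61g (-0.80), Sec61a1 (0.92), Sec61b (-0.90) and Syvn1 (0.61) missed the threshold, as did Sdf2l1 (-0.95) and Syvn1 (1.26) without replicate 1 of GM-CSF cDC1s, and Sec61g (-1.15), Sec61a1 (0.97) and Syvn1 (1.27) without replicate 2 of GM-CSF cDC1s. Manf, Creld2 and Eif2ak3 passed with each library left out. The part of transcript length in these changes cannot be told apart from the treatment with 2 libraries a group.

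**Figure D4:**
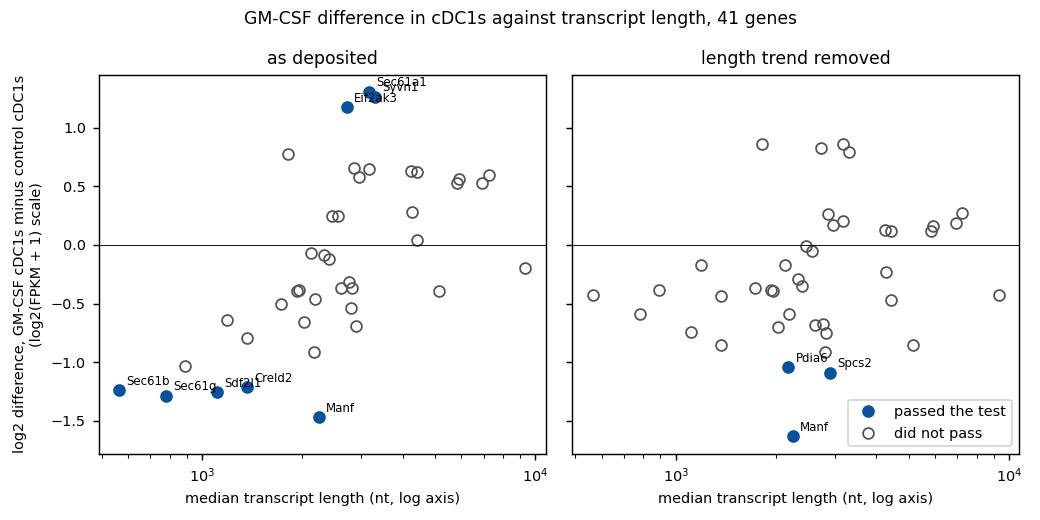
The log2 difference of GM-CSF minus control cDC1s for the 41 genes against the median RefSeq transcript length (nt, log axis), as deposited at left and with the trend over all genes removed at right; filled points passed the test. At left 4 of the 5 genes that fell are the short Sec61b, Sec61g, Sdf2l1 and Creld2, and at right Manf, Spcs2 and Pdia6 pass.

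In cDC2s none of the 41 members passed between GM-CSF and control mice (limma, 0 called, 3 at an unadjusted p under 0.05), against 5.28% of all genes (3.21% higher, 2.06% lower). All 41 differences were under 2-fold, from -0.92 (Ppp1r15a) to 0.77 (Sec61a1), with a median of -0.04 for members and 0.02 for all genes. Manf was 22.2 and 19.1 FPKM in control and 17.4 and 15.1 FPKM in GM-CSF cDC2s. Hspa5 was 911 and 677 FPKM in control and 836 and 335 FPKM in GM-CSF cDC2s, and its difference passed without replicate 1 of GM-CSF cDC2s (-1.23), the only member that did so.

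The difference between the 2 GM-CSF changes was tested as an interaction. Of 41 members 4 passed, 1 higher and 3 lower, against 6.84% of all genes (4.24% higher, 2.59% lower). The change in cDC1s minus that in cDC2s was -1.30 for Sec61b (SE 0.318, adjusted p 0.0334), and -1.14 for Manf (SE 0.266, adjusted p 0.0293). It was -1.05 for Ssr2 (SE 0.238, adjusted p 0.0276) and 1.04 for Eif2ak3 (SE 0.261, adjusted p 0.0363). In each case the control cDC1 libraries stood apart from the control cDC2s and the treated libraries lay closer together. All 4 were lost with the length trend removed, after quantile normalization, with library weights and in a fit of these 8 libraries alone, and Eif2ak3 (0.98) also after median-of-ratios scaling, which left 0 higher and 3 lower. Leaving out 1 library gave from 0 to 8 members, with 0 without replicate 2 of GM-CSF cDC1s or of GM-CSF cDC2s and 8 without replicate 1 of control cDC1s.

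Along the CD115-high cells 1 ER gene passed, Ppp1r15a between P-IV and P-I. Between P-III and P-I, 0 of 41 members passed by limma (5 at an unadjusted p under 0.05), against 3.51% of all genes (0.979% higher, 2.53% lower), with differences from -0.86 (Canx) to 0.64 (Ppp1r15a). Canx, the membrane lectin calnexin, was 104 and 101 FPKM in P-I and 41.9 and 75.4 FPKM in P-III, and passed without replicate 2 of P-III (-1.27). Between P-IV and P-III, 0 passed by limma (2 at an unadjusted p under 0.05), against 0.591% (0.273% higher, 0.318% lower), and 40 of 41 differences were under 2-fold. Hspa5 was 276 and 298 FPKM in P-I, 267 and 293 FPKM in P-III and 246 and 311 FPKM in P-IV, so its libraries overlapped throughout.

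Ppp1r15a was the member that differed over the whole series. It was 23.3 and 64.6 FPKM in P-I, 49.7 and 75.3 FPKM in P-III and 121 and 149.7 FPKM in P-IV. Between P-IV and P-I it was the only member that passed (1.76, SE 0.476, adjusted p 0.0364), with 1 higher and 0 lower, against 7.30% of all genes (2.43% higher, 4.86% lower). In that comparison 14 of 41 members had an unadjusted p under 0.05. The difference was below 0 in 32 members, with all 9 translocation and traffic genes among them, and the median was -0.25 for members and -0.10 for all genes. Without replicate 1 of P-I (1.05), without either P-IV library (1.92 and 1.61), with no filter and in a fit of these 4 libraries alone it missed the threshold. Pdia5 was 3.13 and 3.04 FPKM in P-I, 3.59 and 3.19 FPKM in P-III and 7.79 and 7.34 FPKM in P-IV, and its difference of 1.07 between P-IV and P-I did not pass (adjusted p 0.105), but did in 6 alternatives, among them both fits with a replicate block. Herpud1, an ERAD scaffold whose promoter holds an ERSE-II, was 127 and 109 FPKM in P-I and 187 and 228 FPKM in P-IV (0.81, adjusted p 0.0617). Xbp1 ran the other way, at 232 and 212 FPKM in P-I, 198 and 176 FPKM in P-III and 144 and 152 FPKM in P-IV (-0.58, adjusted p 0.203). Neutrophil markers, led by Mpo, summed to 23.4 and 93.0 FPKM in P-I and 0.054 and 0.378 FPKM in P-IV, and their part in these differences was not tested.

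Against the cDC subsets of GM-CSF mice, a smaller share of the members than of all genes passed in P-IV. The labels tie these libraries by treatment and not by mouse. Their library numbers in the labels also lie apart, so population and any library set cannot be told apart. Of 41 members 3 were lower and 0 higher than in GM-CSF cDC1s, against 15.4% of all genes (8.95% higher, 6.49% lower). Pdia5 was 7.79 and 7.34 FPKM in P-IV and 336 and 271 FPKM in GM-CSF cDC1s, 40.1-fold lower in its mean (-5.14, SE 0.368, adjusted p 6.01e-07). Hspa5 was 246 and 311 FPKM against 909 and 574 FPKM (-1.38, SE 0.358, adjusted p 0.0147). Creld2 was 28.6 and 32.4 FPKM against 69.0 and 80.0 FPKM (-1.26, SE 0.195, adjusted p 0.000427). The Hspa5 call was lost without replicate 1 of GM-CSF cDC1s (-1.05) or of P-IV (-1.21), and the calls for Pdia5 and Creld2 held throughout.

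Against GM-CSF cDC2s, 2 members passed, 1 higher and 1 lower, against 16.4% of all genes (7.98% higher, 8.45% lower). Pdia5 was higher in P-IV, at 7.79 and 7.34 FPKM against 1.22 and 0.318 FPKM (2.32, SE 0.368, adjusted p 0.00056), and passed in every alternative. Ppp1r15a was lower in P-IV, at 121 and 149.7 FPKM against 500.3 and 275 FPKM (-1.46, SE 0.476, adjusted p 0.0421), and missed the threshold without replicate 1 of GM-CSF cDC2s (-1.03), without either P-IV library (-1.30 and -1.61), with no filter and with library weights. After quantile normalization 1 member was higher and 3 lower, the others being Hspa5 (-1.21) and Herpud1 (-1.03), and with the length trend removed 2 were higher and 1 lower, the other being Pdia3 (1.01). Without replicate 2 of GM-CSF cDC2s 6 members passed. By library, Pdia5 was 124 to 336 FPKM in the cDC1s and 7.34 to 10.9 FPKM in P-IV and DC-Xs. It was 3.04 to 3.59 FPKM in P-I and P-III and 0.318 to 2.54 FPKM in the cDC2s. Its differences between P-IV and P-I and between P-IV and P-III did not pass in the main test.

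DC-Xs and P-IV were compared as overlapping populations sorted through different gates. The label numbers of their libraries also lie apart, so the gate and any library set cannot be told apart. Of 41 members 0 passed by limma (8 at an unadjusted p under 0.05), against 1.96% of all genes (0.273% higher, 1.69% lower). Pdia5 was 10.4 and 10.9 FPKM in DC-Xs against 7.79 and 7.34 FPKM in P-IV. The largest differences above 0 were in Ppp1r15a, at 547 and 370.3 FPKM in DC-Xs against 121 and 149.7 FPKM in P-IV (1.74, adjusted p 0.0827), and in Hspa5, at 667 and 533 FPKM against 246 and 311 FPKM (1.10, adjusted p 0.15). The libraries of DC-Xs and P-IV did not overlap for either gene, although neither passed. Sec61g, the member with the largest difference below 0, was 8.86 and 12.6 FPKM against 25.1 and 25.5 FPKM (-1.18, adjusted p 0.0507), and passed with a pseudocount of 0.1, after quantile normalization, with library weights and with the replicate block. Hspa5 also passed with library weights. Over all genes this comparison rose with transcript length (rho 0.23), with medians of -0.343 in short and -0.004 in long genes. After removal of that trend 0 members passed by limma, Sec61g included. With a replicate block for the populations of the dendritic cell gate alone, which was chosen after seeing the data, Ppp1r15a (adjusted p 0.021), Hspa5 (adjusted p 0.014) and Sec61g (adjusted p 0.0254) all passed by limma. Sec61b (-0.93) and Ssr1 (-0.88), a subunit of the translocon-associated complex, had adjusted p 0.0494 and 0.0478 but were under 2-fold. B cell markers summed to 1.29 and 1.55 FPKM in DC-Xs and 19.4 and 23.8 FPKM in P-IV, and their part was not tested.

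The summed level of immediate early and heat shock genes had nearly the same order of populations as Ppp1r15a. The sum of 11 such genes (among them Fos, Jun, Egr1, Zfp36, Hspa1a and Hspa1b, chosen after the members' values were seen) was 21876 and 18979 FPKM in control cDC2s, 17738 and 10478 FPKM in GM-CSF cDC2s, 16144 and 11668 FPKM in DC-Xs, 9140 and 6044 FPKM in control cDC1s, 9053 and 5967 FPKM in GM-CSF cDC1s, 6360 and 6833 FPKM in P-IV, 2964 and 3992 FPKM in P-III and 1313 and 2423 FPKM in P-I. The means of Ppp1r15a had the same order of populations, except that DC-Xs came before GM-CSF cDC2s. Single genes did not all keep this order. Of the 11, 8 were higher in both DC-X libraries than in both P-IV libraries, Egr1 and Ier3 were lower in both, and Ier2 overlapped. Hspa1a, a cytosolic heat shock gene, was 3549 and 1753 FPKM in DC-Xs and 514 and 585 FPKM in P-IV, whereas Egr1 was 337 and 223 FPKM in DC-Xs and 361 and 359 FPKM in P-IV. In each of the 5 populations of the dendritic cell gate the sum was higher in replicate 1. The part of this signal in the members' differences was not tested.

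**Figure D5:**
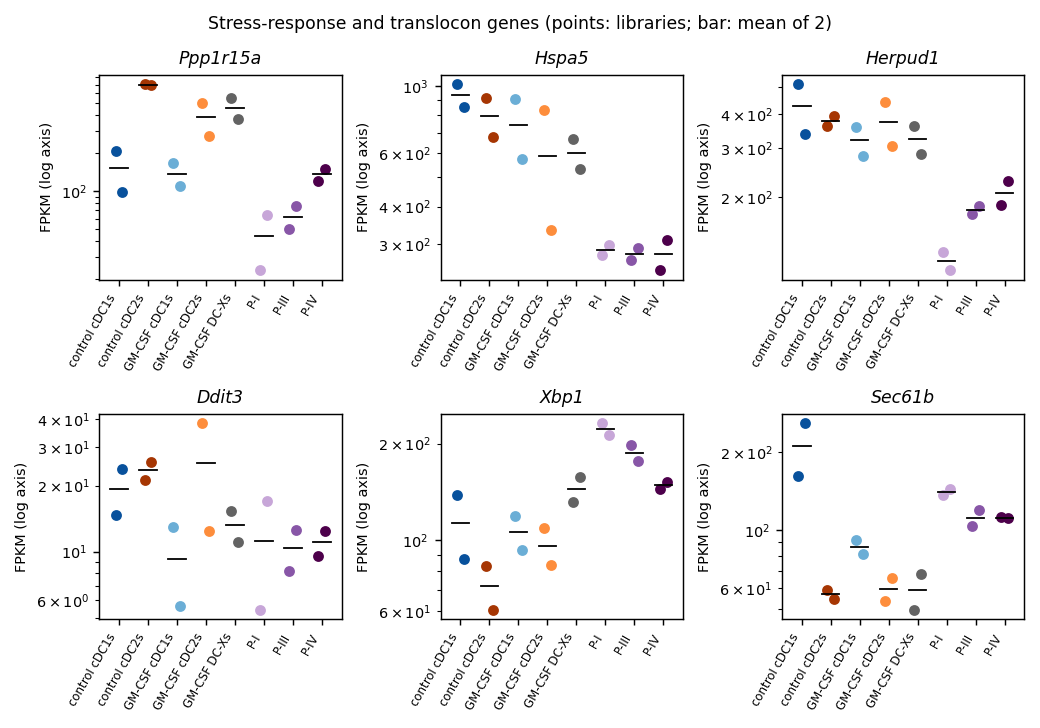
FPKM on a log axis of 6 stress-response and translocon genes in the 16 libraries, with points for libraries and bars for the mean of 2. Hspa5 is 246 to 311 FPKM in the 6 CD115-high libraries and 335 to 1016 FPKM in the others, Xbp1 is highest in P-I, and Ppp1r15a is highest in control cDC2s.

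In all, 20 of the 41 members passed in at least 1 comparison and 21 in none. The latter hold 5 of the 8 sensors, factors and ATF4 targets. The share of all genes that passed in at least 1 comparison was not counted. It is at least 31.8%, the share that passed between control cDC1s and control cDC2s. Ern1 (IRE1) ran from 0.632 and 1.33 FPKM in control cDC1s to 3.63 and 4.35 FPKM in P-I. Atf4, the transcription factor downstream of PERK, differed as much between replicates as between populations, at 110 and 35.0 FPKM in GM-CSF cDC1s and 142 and 43.4 FPKM in GM-CSF cDC2s. Ddit3 shared this spread, at 12.9 and 5.68 FPKM in GM-CSF cDC1s and 38.4 and 12.4 FPKM in GM-CSF cDC2s. Trib3, a pseudokinase induced by ATF4, stayed between 0.267 and 1.68 FPKM.

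Among the folding genes that passed nowhere, P4hb, the founding disulfide isomerase, was 297 and 145 FPKM in control cDC1s and 281 and 383 FPKM in GM-CSF cDC1s. Hyou1, an ER nucleotide exchange factor for BiP, was low, between 2.61 and 11.0 FPKM. Dnajb11 (ERdj3), a BiP cochaperone with an ERSE-II, was 129 and 105 FPKM in control cDC1s and 54.3 to 91.0 FPKM elsewhere. Of the ERAD genes, Edem1, which recognises misfolded glycoproteins, was 51.7 and 44.8 FPKM in P-I and 24.5 and 12.4 FPKM in control cDC1s. The ERAD channel genes Derl1 and Derl2 were 33.4 to 80.2 FPKM and 9.70 to 20.1 FPKM over the 16 libraries. Sec22b, a SNARE of ER to Golgi traffic, was 24.0 to 58.7 FPKM.

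The other genes of these pathways, 120 listed in 7 lists and 112 tested, were read in the same fits. The length trend was not removed from their values, and its part in them was not tested. Its rho over all genes was -0.416 between control cDC1s and control cDC2s, where short transcripts were favoured. It was 0.458 between GM-CSF and control cDC1s and 0.23 between DC-Xs and P-IV. Between control cDC1s and control cDC2s, 27 of the 112 genes were higher and 13 lower, 35.7% against 31.8% of all genes. The oligosaccharyltransferase, which adds glycans to nascent chains, had 7 of 12 subunits higher and 1 lower, led by Krtcap2 (1.92, adjusted p 0.000173), with the catalytic subunit Stt3b lower (-1.28, adjusted p 0.00675). Other ER chaperones and oxidoreductases had 7 of 20 higher and 2 lower, with the ER peroxiredoxin Prdx4 at 2.26 (adjusted p 4.15e-05). Among other ERAD genes Derl3 was higher (2.18, adjusted p 8.67e-05), and among other genes of the integrated stress response 5 of 25 were higher and 5 lower, with Sesn2 at -3.24 (adjusted p 6.08e-05).

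Between GM-CSF cDC1s and GM-CSF cDC2s 10 of the 112 were higher and 5 lower (13.4%, against 14.8% of all genes), among them Atf3, a stress-induced transcription factor, at -1.94 (adjusted p 0.0264). Between GM-CSF and control cDC1s 11 rose and 6 fell (15.2%, against 14.8%). Ganab, which trims glucose from new glycans, rose by 1.56 (adjusted p 0.00272), and Krtcap2 changed by -1.32 (adjusted p 0.00649). In cDC2s Prdx4 alone passed (1.47, adjusted p 0.00647), and its interaction also passed (-2.10, adjusted p 0.0143), with 2 genes higher and 2 lower in that test (3.57%, against 6.84%). Along the CD115-high cells Nupr1, a stress-induced chromatin protein, was lower in P-IV than in P-III (-2.03, adjusted p 0.0127) and than in P-I (-3.14, adjusted p 5.76e-05). Phgdh, of serine synthesis, was lower in P-III than in P-I (-1.59, adjusted p 0.0361). P-IV had 4 of these genes higher and 6 lower than GM-CSF cDC1s (8.93%, against 15.4%), and 8 higher and 4 lower than GM-CSF cDC2s (10.7%, against 16.4%). DC-Xs had 0 higher and 5 lower than P-IV (4.46%, against 1.96%), with Kdelr2, a retrieval receptor for ER proteins, at -1.75 (adjusted p 0.00634).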

How the data were processed

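Splenocytes were sorted by flow cytometry, and total RNA was taken from each population. Libraries were made with a SMARTer ultra low input kit, sequenced on an Illumina NovaSeq, aligned by the authors to mm10 with HISAT2 2.1.0 and quantified with StringTie 1.3.4d (bcl2fastq 1.8.4 is also named in the submitters' processing notes). The deposited values are FPKM per gene, normalized by the authors, and no further normalization step is given in the sources used here. They are not counts, so no count test was run.

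Each comparison used limma 3.58.1 on log2(FPKM + 1) values (R 4.3.3; trend, all 16 libraries, 1 mean per population, 8 residual degrees of freedom). This scale understates changes of low genes. Genes with at least 1 FPKM in at least 2 libraries were kept (11335). p-values were adjusted by Benjamini-Hochberg over these genes in each of 11 comparisons, and a gene passed at adjusted p under 0.05 and at least 2-fold. The fit was tested on simulated data with known changes. Transcript length was the median of RefSeq transcripts, and its trend was removed by lowess (span 0.3). Promoters came from RefSeq (GRCm38.p6), and in 33 of 35 members with a promoter the window held the first bases of a GENCODE transcript on the gene's strand. Alternatives were a pseudocount of 0.1, no filter, quantile and median-of-ratios scaling, removal of the length trend, library weights, a replicate block (over all populations, or for the dendritic cell gate alone, added after seeing the data), the compared libraries alone, no minimum fold and each library left out. When this leaves a population with 1 library, it is assumed to vary like the others.

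Members and gene lists were chosen with earlier results of these data known. All 41 members may be named. Full statistics go to at most 3 called members of each role with the largest change. Of the other lists, at most 2 called genes in each direction are named, and of the markers those of the sorting gates and the highest gene of a list.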

Additional observations from a re-analysis of the deposited data

Results flagged for a closer look

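The GM-CSF difference of 4 members differed between cDC1s and cDC2s in the interaction test of limma. These were Eif2ak3 (1.04 on the log2 scale), Manf (-1.14), Sec61b (-1.30) and Ssr2 (-1.05), each as the change in cDC1s minus that in cDC2s. Eif2ak3 was 4.44 and 4.28 FPKM in control cDC1s and 10.0 to 13.2 FPKM in the libraries of the other 3 cDC populations. Manf, Sec61b and Ssr2 were higher in both control cDC1 libraries than in any other cDC library. All 4 calls were lost with the length trend removed.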

How the results depend on the processing

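Over 42 calls of a member in a comparison, 12 held in every alternative and with each library left out, 30 were lost somewhere and 0 changed sign. Of 562 values under an alternative 440 kept the call and 122 lost it. Fitting the compared libraries alone gave 4 members for GM-CSF cDC1s against cDC2s, 0 for GM-CSF against control cDC1s and 0 for the interaction. With no minimum fold there were 13 (GM-CSF cDC1s against cDC2s), 15 (GM-CSF against control cDC1s), 10 (P-IV against GM-CSF cDC1s), 8 (P-IV against GM-CSF cDC2s) and 2 (DC-Xs against P-IV). Quantile normalization gave 4 for GM-CSF against control cDC1s, 0 for the interaction, 4 for P-IV against GM-CSF cDC2s and 1 for DC-Xs against P-IV. Removing the length trend gave 3 for GM-CSF against control cDC1s, 0 for the interaction and 2 for P-IV against P-I. Library weights gave 3 for GM-CSF against control cDC1s, 0 for the interaction, 1 for P-IV against P-III (Ppp1r15a), 2 for P-IV against P-I, 1 for P-IV against GM-CSF cDC2s and 2 for DC-Xs against P-IV. With no filter there were 0 for P-IV against P-I and 1 for P-IV against GM-CSF cDC2s. Median-of-ratios scaling gave 2 for P-IV against P-I, and a pseudocount of 0.1 gave 1 for DC-Xs against P-IV. The cause was not tested.

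Leaving out 1 library gave 5 to 7 members for GM-CSF cDC1s against cDC2s, 5 to 11 for GM-CSF against control cDC1s, 0 to 1 for GM-CSF against control cDC2s, 0 to 8 for the interaction, 0 to 1 for P-III against P-I, 0 to 1 for P-IV against P-I and 1 to 6 for P-IV against GM-CSF cDC2s. The labels name no shared mouse, batch or day for a replicate number. The correlation of replicate deviations ran from -0.203 to 0.671 over 28 pairs of populations and was over 0.1 in 10, and 8 of these were among the 10 pairs of the dendritic cell gate (-0.014 to 0.671). There replicates 1 carry the library numbers 8 to 12 in the labels and replicates 2 the numbers 41 to 100, a hint of shared sets. The CD115-high libraries all carry higher numbers. If the numbers mark sets, library set and population cannot be told apart between P-IV and the cDCs or DC-Xs. With a replicate block 2 members passed for P-IV against P-I and 1 for DC-Xs against P-IV, and no other count changed (16, 8, 8, 0, 4, 0, 0, 3 and 2). With a replicate block for the dendritic cell gate alone, chosen after seeing the data, 5 passed for the interaction (Pdia5 added), 2 for P-IV against P-I and 3 for DC-Xs against P-IV, and no other count changed. The median over all genes moved with quantile normalization, between control cDC1s and cDC2s from -0.26 to 0.02, and between GM-CSF and control cDC1s from 0.14 to -0.02. Having 2 libraries a population limits the precision, and the cDC libraries varied more than the CD115-high libraries.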
